A study of Homo sapiens with 4 samples.

Results

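The distal part of the KRAB zinc finger protein (KZFP) gene cluster at 19p12 was taken as all CpGs from base 19800000 to base 21500000 of chromosome 19 (hg19), a choice that used position and no measured value. It held 16497 of the 27710999 CpGs read on the autosomes and X. Enzymatic methyl sequencing (EM-seq), in which unmethylated cytosines are converted and read as T while methylated ones stay C, had been run on HEK293T, a transformed human embryonic kidney cell line. The groups were WT cells, which carried no edit of ZNF274, and ZNF274KO cells, with 2 libraries each and no other treatment in the labels. The study's methods describe the knockout as a CRISPR-Cas9 deletion with guides on both sides of the gene, puromycin selection and sorting of single cells. Whether the 2 libraries of a group came from separate clones or cultures is not given in the sources used here, so p-values measure only the spread between these libraries, which may be technical, and a clone cannot be told apart from its genotype.

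KZFPs bind DNA through an array of C2H2 zinc fingers, and most recruit the corepressor TRIM28 through their KRAB domain. The fingers are as a rule all encoded by 1 long exon at the 3′ end of the gene, and these exons are known targets of ZNF274, which draws the repressive histone mark H3K9me3 to them. The genes arose by tandem duplication, so that neighbours resemble each other and the cluster also holds many pseudogenes. DNA methylation at CpGs (mCG) is usually low at the promoters of active genes and high in their bodies, while long late-replicating and H3K9me3-marked domains of cultured cells are often only partially methylated.

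The label of the cluster was checked against GENCODE release 44 on GRCh37. The window overlapped 15 protein-coding genes, which are ZNF14, ZNF506, ZNF253, ZNF93, ZNF682, ZNF90, ZNF486, ZNF737, ZNF626, ZNF66, ZNF85, ZNF430, ZNF714, ZNF431 and ZNF708 in the order of the chromosome. In all 15, the largest coding exon was the last one and held at least 3 matches to the C2H2 pattern, and 14 matched a KRAB pattern. The chosen transcript of ZNF714 did not match it. ZNF708 reached past the end of the window, and its promoter lay outside.

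The sequences of 3 of these genes are printed to show where the measured CpGs sit, with every CG in capitals. The first set is the stretch of 300 bases with the most CpGs in the coding part of each zinc finger exon, from chr19:20002557-20002856 (plus strand), chr19:20116817-20117116 and chr19:20728028-20728327 (both minus strand) of GRCh37.
ZNF253: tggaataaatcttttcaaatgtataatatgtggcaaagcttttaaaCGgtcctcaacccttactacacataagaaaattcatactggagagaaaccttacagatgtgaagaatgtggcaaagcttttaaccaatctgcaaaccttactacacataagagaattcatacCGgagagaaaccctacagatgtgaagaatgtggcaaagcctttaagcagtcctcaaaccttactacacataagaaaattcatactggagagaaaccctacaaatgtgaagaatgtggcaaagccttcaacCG
ZNF682: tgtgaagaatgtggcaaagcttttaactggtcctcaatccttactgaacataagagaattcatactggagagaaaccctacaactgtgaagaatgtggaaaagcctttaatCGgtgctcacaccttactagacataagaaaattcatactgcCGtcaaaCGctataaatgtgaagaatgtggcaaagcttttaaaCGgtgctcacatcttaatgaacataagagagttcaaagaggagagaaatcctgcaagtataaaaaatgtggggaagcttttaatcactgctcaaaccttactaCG
ZNF737: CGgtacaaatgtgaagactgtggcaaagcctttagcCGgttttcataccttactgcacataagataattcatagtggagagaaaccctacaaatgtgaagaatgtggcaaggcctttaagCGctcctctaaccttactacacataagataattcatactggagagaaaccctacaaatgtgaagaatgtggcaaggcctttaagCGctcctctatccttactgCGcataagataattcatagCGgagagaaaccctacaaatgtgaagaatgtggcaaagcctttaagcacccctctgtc
The ZNF253 stretch held 3 CpGs, that of ZNF682 held 5 and that of ZNF737 held 6. The second set is the 300 bases just before the transcription start, from chr19:19976391-19976690 (plus strand), chr19:20150315-20150614 and chr19:20748588-20748887 (both minus strand).
ZNF253: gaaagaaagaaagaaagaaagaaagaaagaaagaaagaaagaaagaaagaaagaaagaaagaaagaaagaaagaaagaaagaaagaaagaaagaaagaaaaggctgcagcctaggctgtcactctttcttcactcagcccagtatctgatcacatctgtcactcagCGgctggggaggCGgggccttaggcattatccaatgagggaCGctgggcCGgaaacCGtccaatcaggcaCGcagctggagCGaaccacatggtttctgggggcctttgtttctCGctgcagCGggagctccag
ZNF682: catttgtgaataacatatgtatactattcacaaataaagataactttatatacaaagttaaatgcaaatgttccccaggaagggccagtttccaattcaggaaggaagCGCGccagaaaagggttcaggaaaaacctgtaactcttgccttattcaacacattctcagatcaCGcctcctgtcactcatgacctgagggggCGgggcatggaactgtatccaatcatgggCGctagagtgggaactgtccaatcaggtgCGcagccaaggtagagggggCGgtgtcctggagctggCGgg
ZNF737: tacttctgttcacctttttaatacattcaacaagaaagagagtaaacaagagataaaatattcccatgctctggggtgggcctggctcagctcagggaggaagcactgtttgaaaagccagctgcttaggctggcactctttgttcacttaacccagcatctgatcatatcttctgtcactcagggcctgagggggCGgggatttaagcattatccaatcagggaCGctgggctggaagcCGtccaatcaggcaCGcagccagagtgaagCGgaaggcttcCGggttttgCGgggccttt
These held 9, 8 and 7 CpGs in the same order. The promoters were denser in CpGs than the exons over all 15 genes, with a median of 30.5 CpGs per kb within 1 kb of the transcription start and 5.04 CpGs per kb in the zinc finger exons, where the whole window held 9.70.

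In the exon stretch of ZNF253, none of 28 reads in WT 1 and none of 20 in WT 2 was methylated, which allows a level of up to 10.7% and 15% by counting error alone. The same stretch stood at 72.7% in ZNF274KO 1 and 37.5% in ZNF274KO 2. Just before its transcription start the order of the groups was the other way round, with 40.9% and 31.5% in WT 1 and WT 2 and 12.5% in ZNF274KO 1. None of 68 reads was methylated there in ZNF274KO 2, which allows up to 4.41%. The exon stretch of ZNF682 stood at 11.1% and 23.8% in WT and at 50% and 41.9% in ZNF274KO. Its upstream stretch did not separate the groups, with 13.1% and 20.5% in WT against 42.7% and 19.7% in ZNF274KO. The exon stretch of ZNF737 stood at 31.0% and 46.7% in WT and at 93.3% and 70.6% in ZNF274KO, and its upstream stretch again overlapped, with 30% and 12% in WT and 5.08% and 28.6% in ZNF274KO. Limits and intervals cover counting error only, and a read that spans several CpGs was counted at each.

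Over the whole series the libraries held 241598512 to 295114493 CpG reads, with a median depth of 8 to 10 reads per CpG and a genome-wide level of 58.4% to 60.4%. In the distal part they held 121088 to 151838 reads at a median of 7 to 9 per CpG. The body of ZNF274, which lies elsewhere on chromosome 19, had 5158 and 4274 reads in WT, 0 in ZNF274KO 1 and 14 in ZNF274KO 2, where 3 reads would be 0.0636% of the WT mean. Its loss from both ZNF274KO libraries matched the labels.

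mCG was about 2 times as high in ZNF274KO as in WT across the window. The level, which is the percentage of CpG reads called methylated, came to 32.6% and 31.2% for WT libraries 1 and 2, and to 68.6% and 61.3% for ZNF274KO libraries 1 and 2. Both ZNF274KO libraries stood above both WT libraries, and the means of 31.9% ± 0.968 and 64.96% ± 5.14 (SD, n = 2) differed by 33.1 percentage points. An exact two-sided permutation test gave p = 0.333, the smallest value that 2 libraries against 2 allow. The rest of chromosome 19, outside 19p12, stood at 63.7% ± 0.566 in WT and 65.4% ± 1.69 in ZNF274KO, a difference of 1.68 points. The distal part minus the rest of the chromosome was -31.8 points in WT and -0.404 points in ZNF274KO, and the groups did not overlap in this measure either (exact permutation p = 0.333). The centromere-side part of 19p12 rose from 26.6% ± 0.235 to 56.8% ± 7.49, and the distal part exceeded it by 5.25 points in WT and by 8.19 points in ZNF274KO, a change of 2.94 points (exact permutation p = 0.333) that came to 1.27 points without ZNF274KO replicate 2 and 4.61 points without ZNF274KO replicate 1.

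Read depth moved with the groups on 1 of 2 scales. Relative to the autosomes, reads per CpG were 0.866 and 0.829 in WT and 0.926 and 0.844 in ZNF274KO, which overlapped. Relative to the rest of chromosome 19 they were 0.925 and 0.891 in WT and 1.11 and 1.02 in ZNF274KO, where both ZNF274KO libraries were higher (exact permutation p = 0.333). The rest of chromosome 19 itself fell from 0.934 ± 0.00401 to 0.830 ± 0.00747 of the autosomal depth. The part of copy number in the mCG levels was not tested.

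Most of the tiles called higher were low in WT. Of 340 tiles of 5 kb, 326 reached 20 reads and 5 CpGs in all 4 libraries and were tested together with all 563523 tiles of the series by the quasi-likelihood test of edgeR with Benjamini-Hochberg adjustment. In the distal part 249 were called higher in ZNF274KO at an adjusted p under 0.05 (76.4%), against 0.473% of all tiles, and 1 was called lower, against 0.0131% (0.486% of all tiles in either direction). The ZNF274KO pair lay wholly above the WT pair in 272 tiles and wholly below it in 16, which 13.5% and 22.3% of all tiles did. The median difference was 43.0 points over the 326 tiles and -0.582 points over all tiles tested. ZNF274KO 1 stood above ZNF274KO 2 in 292 of the 326 tiles.

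**Figure D1:**
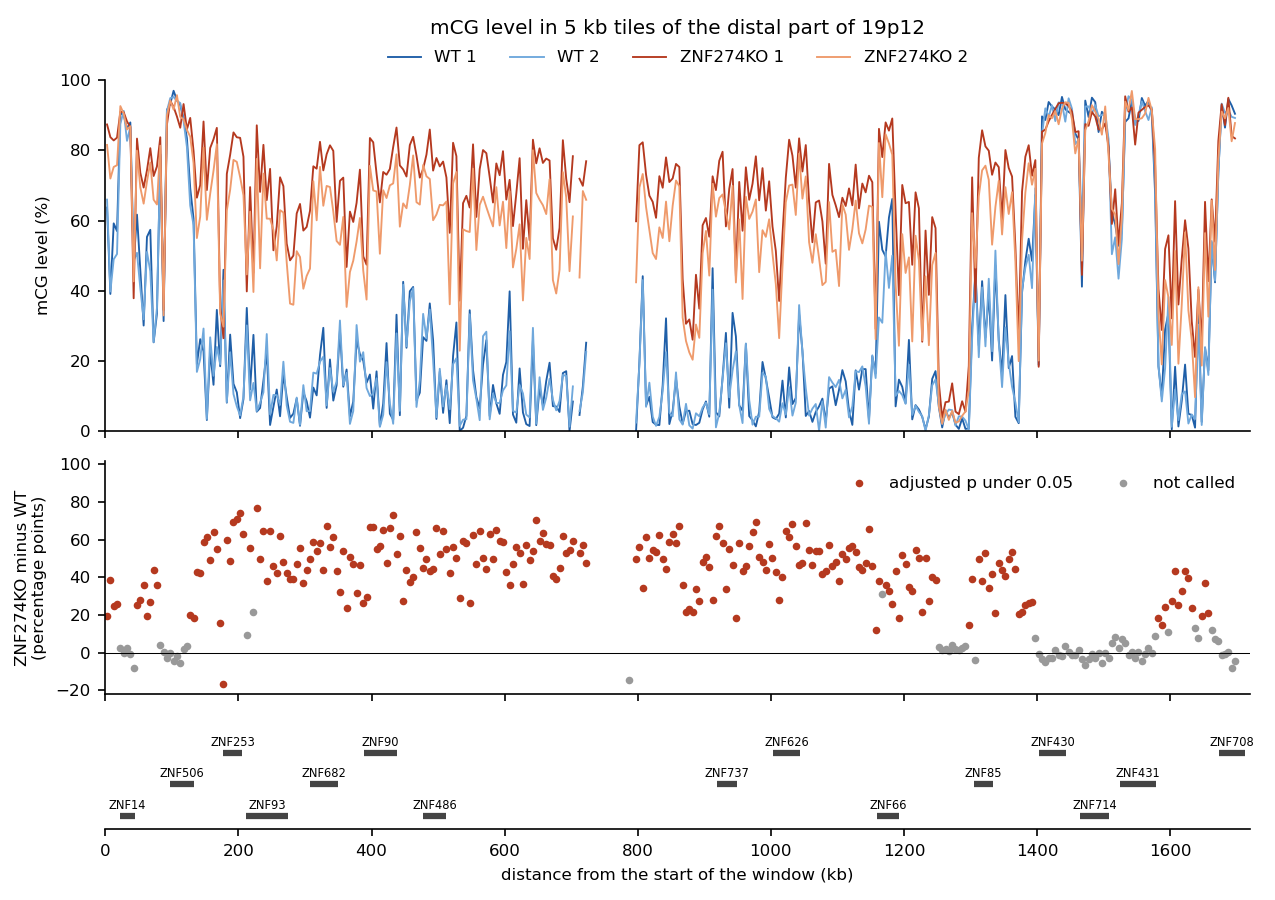
The upper panel plots the mCG level (%) of each 5 kb tile in each of the 4 libraries against the distance from the start of the window (kb). The middle panel plots the mean of ZNF274KO minus the mean of WT (n = 2 each, percentage points), in red where the edgeR adjusted p was under 0.05, and the bars below are the 15 genes. WT is low and ZNF274KO high over most of the window, with 249 tiles called higher, while the 2 groups lie close together over ZNF14, most of ZNF506 other than its promoter end, ZNF430, ZNF714, ZNF431 and ZNF708, and the gap holds tiles not tested.

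Tiles with a WT mean under 20% numbered 187, of which 176 (94.1%) were called higher, with a median difference of 50.4 points. Of 46 tiles with a WT mean of 80% or more, 0 were called and the median difference was -0.986 points. Those between stood in order, with 50 of 55 called higher at 20 to 40%, 21 of 32 at 40 to 60% and 2 of 6 at 60 to 80%. A level near the top leaves little room for a rise, and the WT mean used for sorting is also a term of the difference. The share called over the whole series at the same WT level is not given here. These shares thus only describe where in WT the called tiles of the window lay. Single CpGs showed the same distribution. Of the 10810 CpGs read 5 or more times in all 4 libraries, 59.2% and 60.05% were under 20% methylated in the WT libraries and 13.7% and 18.01% in the ZNF274KO libraries. The share at 80% or more was 21.2% and 20.8% in WT and 52.7% and 42.9% in ZNF274KO. Both ZNF274KO libraries exceeded both WT libraries at 60.8% of these CpGs, where 10.7% of CpGs did so over the autosomes and X, and both were lower at 4.56%, where 12.2% were.

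The called tiles joined into long domains. The longest run of neighbouring tiles called higher covered 96 tiles, or 480 kb, at chr19:20025001-20505000, from the body of ZNF93 through ZNF682, ZNF90 and ZNF486. Its level was 16.3% and 16.1% in WT and 70.7% and 60.3% in ZNF274KO. The next covered 74 tiles, or 370 kb, at chr19:20595001-20965000, with ZNF737, ZNF626 and the start of ZNF66, at 14.4% and 13.1% in WT and 66.8% and 57.0% in ZNF274KO. Between them lay 12 neighbouring tiles that were not tested, with 15 CpGs in 60 kb. The reference holds 50000 unread bases in the window.

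In some stretches the groups differed little. The longest row of tested tiles with no call held 37 tiles over 185 kb at chr19:21195001-21380000, across ZNF430, ZNF714 and ZNF431, where the level was 79.9% and 80.01% in WT and 80.7% and 80.5% in ZNF274KO, a difference of 0.629 points. A second one was low throughout. It held 9 intergenic tiles over 45 kb at chr19:21050001-21095000, between ZNF66 and ZNF85, at 3.35% and 4.35% in WT and 7.73% and 4.26% in ZNF274KO, and these were 9 of the 11 tiles with a WT mean under 20% that were not called. Low mCG in WT thus went with a called rise in most, but not all, of the window.

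The 5 largest rises among tiles with at least 20 CpGs lay between 70.2 and 76.8 points. The largest, inside ZNF93 at chr19:20025001-20030000, was at 5.49% and 5.67% in WT and 87.2% and 77.6% in ZNF274KO. Another held the zinc finger exon of ZNF253, and another the downstream part of ZNF90, with 1 intergenic tile among the 5. Of the 5 largest falls, only the tile over the promoter of ZNF253 was called (edgeR adjusted p under 0.05), with 46.0% and 42.9% in WT and 26.4% and 29.7% in ZNF274KO, and this call was lost without ZNF274KO replicate 1 (adjusted p = 0.0733). The tile at chr19:20585001-20590000, second among the falls at -14.7 points, had 4.47% of its CpGs in sequence that occurs once in the genome and was not called.

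Zinc finger exons fell into 2 groups by their level in WT. In 9 of the 15, from ZNF253 to ZNF85, the WT mean was 0% to 25.5% and the ZNF274KO mean 47.2% to 82.2%, with differences of 38.6 to 74.6 points, and 8 of them were called higher. In the other 6, the exons of ZNF14, ZNF506, ZNF430, ZNF714, ZNF431 and ZNF708, the WT mean was 89.3% to 97.2% and the ZNF274KO mean 81.0% to 97.7%, and none was called. The 8 calls were 53.3% of the 15, where 0.438% of the 14619 largest coding exons of all genes were called higher, 0.0137% lower and 0.451% in either direction. The groups did not overlap at 10 exons, with the ZNF274KO pair above at 9 and below at 1, against 12.6% and 21.8% of all such exons. With limma 1 of the 15 exons was called, and 2 of all 14619. Several of the 8 calls were lost with a library left out, as given below, where calls also became fewer over the whole series. The median difference was 41.1 points over the 15. It was 2.87 points over 247 zinc finger exons elsewhere on chromosome 19, the centromere-side part of 19p12 included. Zinc finger exons on other chromosomes, 299 in number, had -0.370 points, and 14058 exons of other genes had -0.450 points. In these sets, in the same order, 33 (13.4%), 13 (4.35%) and 10 (0.0711%) exons were called higher. The exons of the centromere-side part were not counted on their own. That part as a whole stood 30.1 points higher in ZNF274KO than in WT, against 33.1 points for the distal part.

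The exon of ZNF253 was unmethylated in WT, with 0 of 62 and 0 of 36 reads, which allow levels of up to 4.84% and 8.33%, and stood at 87.3% in ZNF274KO 1 and 58% in ZNF274KO 2 (edgeR adjusted p = 9.49e-04). ZNF93, a KZFP that binds LINE-1 elements, also had no methylated read in its exon in WT, with 0 of 58 and 0 of 47 reads and limits of 5.17% and 6.38%, and 74.5% and 55.6% in ZNF274KO (adjusted p = 6.00e-04). Both exons lay far apart between the groups, although the ZNF274KO libraries also differed from each other. The exon of ZNF90 rose from 4.69% and 3.20% to 74.6% and 70.5% (adjusted p = 3.14e-05). That of ZNF486 rose from 1.37% and 6.06% to 84.7% and 72%, the largest difference at 74.6 points (adjusted p = 2.00e-04). The exon of ZNF682, with 10 CpGs, rose from 7.79% and 15.5% to 59.4% and 55.7% (adjusted p = 0.00301). None of these exons overlapped between the groups. That of ZNF737 rose from 24% and 27.1% to 86.6% and 77.8%. Without WT replicate 1 the calls of ZNF253, ZNF682 and ZNF737 were lost (adjusted p = 0.0896, 0.100 and 0.0564), and without ZNF274KO replicate 1 that of ZNF682 was (adjusted p = 0.0883).

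The exons of ZNF626, ZNF66 and ZNF85 showed smaller differences, of 41.1, 41.9 and 38.6 points. ZNF626 stood at 4.44% and 7.69% in WT and 58.6% and 35.7% in ZNF274KO (adjusted p = 0.0319), and ZNF66 at 10.7% and 14.3% against 63.4% and 45.5% (adjusted p = 0.0197). The exon of ZNF85 missed the threshold, with 15.4% and 21.4% in WT and 63.2% and 50.9% in ZNF274KO (adjusted p = 0.0508). It was called with at least 10 reads (adjusted p = 0.0477), centred on the genome-wide log-odds (0.0335) and with a replicate block (0.00208). It was not called with limma, with only the CpGs in sequence that occurs once, or when the model's allowance for spread followed the mean count. The calls of ZNF626 and ZNF66 were both lost without WT replicate 1, without WT replicate 2 and without ZNF274KO replicate 1, with adjusted p from 0.287 to 0.520 for ZNF626 and from 0.234 to 0.364 for ZNF66. That of ZNF66 was also lost with the CpGs in sequence that occurs once (adjusted p = 0.130). Depth was low, with 39 to 82 reads per library over 6 to 8 CpGs at these 3 exons. The exon of ZNF253, with 36 to 62 reads over 6 CpGs, and that of ZNF93, with 45 to 58 over 5, were as shallow. The exon of ZNF430 was the only 1 of the 15 at which the ZNF274KO pair lay wholly below the WT pair, at 93.1% and 85.5% in WT and 81.9% and 80% in ZNF274KO, and was not called.

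Gene bodies divided in the same way. In 9 bodies, those of ZNF253, ZNF93, ZNF682, ZNF90, ZNF486, ZNF737, ZNF626, ZNF66 and ZNF85, the WT mean was 13.0% to 36.4% and the ZNF274KO mean 58.6% to 74.1%, and all 9 were called higher (60% of the 15, against 0.888% of the 19829 gene bodies tested, with 0.0303% lower and 0.918% in either direction). The ZNF274KO pair lay wholly above the WT pair at 11 bodies and wholly below it at 3, which 9.09% and 30.6% of all bodies did. The median difference over the 15 was 30.6 points and that over all gene bodies -0.931 points. The largest difference was 52.2 points at ZNF682, whose body stood at 15.5% and 15.6% in WT and at 73.4% and 62.1% in ZNF274KO (edgeR adjusted p = 1.89e-07). The body of ZNF66 had the smallest called difference, 25.2 points, with 42.2% and 30.7% in WT and 66.7% and 56.7% in ZNF274KO (adjusted p = 0.00443, and 0.370 without ZNF274KO replicate 1). In the other 6 bodies the WT mean was already 73.9% to 84.8%, and the difference ranged from -4.50 points at ZNF708 to 4.93 points at ZNF506.

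**Figure D2:**
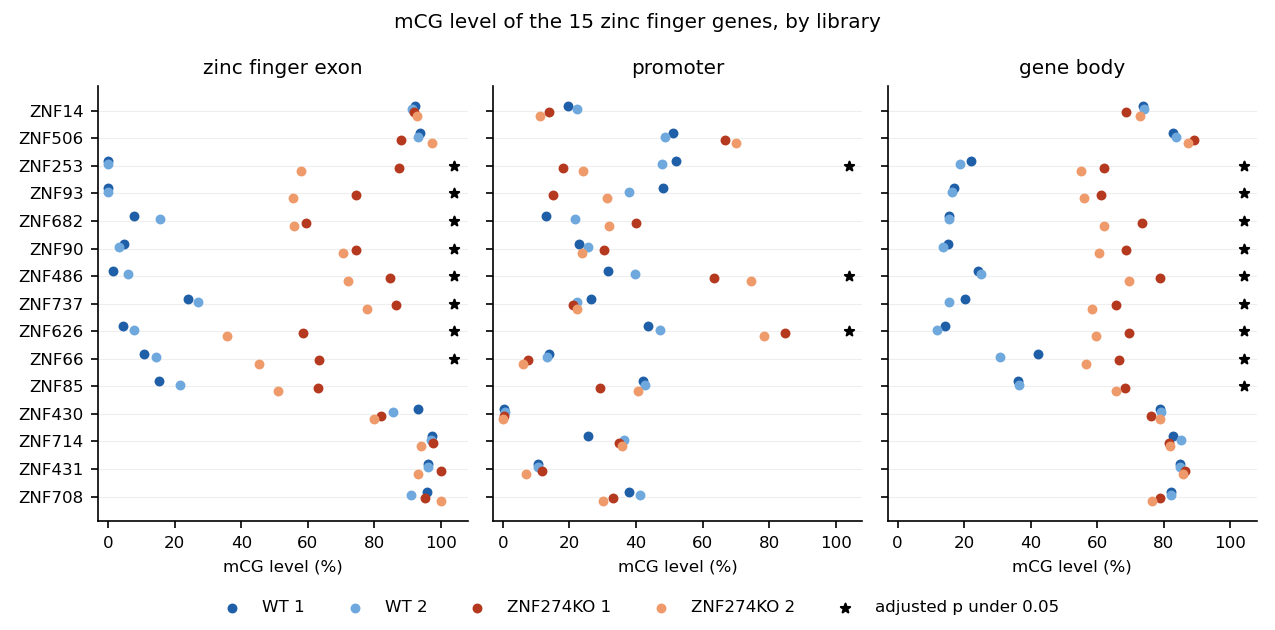
Each row is a gene in the order of the chromosome, and the 4 points are the mCG levels (%) of the WT and ZNF274KO libraries in its zinc finger exon, promoter (1 kb either side of the transcription start) and body, with a star where the edgeR adjusted p was under 0.05. The red ZNF274KO points lie to the right of the blue WT points in the exons and bodies from ZNF253 to ZNF85, and on either side of them in the promoters.

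Promoters moved in both directions. Of the 15, 2 were called higher and 1 lower, where 0.101% and 0.0253% of the 19758 promoters of the series were, or 0.127% in either direction. The ZNF274KO pair lay wholly below the WT pair at 7 promoters (46.7%) and wholly above it at 4 (26.7%), against 20.3% and 14.4% of all promoters. The 7 include the promoter of ZNF708, which lies outside the window. They also include that of ZNF430, which had almost no mCG in any library and differed by -0.453 points. The median difference was -1.19 points over the 15 and -0.176 points over all. The promoters of ZNF486 and ZNF626 rose. That of ZNF626 stood at 43.5% and 47.3% in WT and 84.7% and 78.4% in ZNF274KO (edgeR adjusted p = 0.0110), and that of ZNF486 at 31.6% and 39.6% against 63.4% and 74.5% (adjusted p = 0.0464, and 0.0708 without ZNF274KO replicate 2). Of the 15, 0 were called within 500 bases of the start, in the 1 kb before it alone or with limma. Over the whole series these settings called 1 of 19172, 12 of 18889 and 0 of 19758, so their zeros say little about these promoters. With at least 10 reads, 1 of the 2 higher calls was lost, and the calls also changed with a library left out.

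The promoter of ZNF253 fell, from 52.1% and 47.8% in WT to 18.02% and 24.0% in ZNF274KO (adjusted p = 0.0422), in the gene whose zinc finger exon went from 0% to a mean of 72.6%. This call did not hold when the dispersion, the model's allowance for extra spread, followed the mean count (adjusted p = 0.0512), or without ZNF274KO replicate 1 (adjusted p = 0.140), although the promoter stood lower in ZNF274KO in both. The promoter of ZNF93 had 48.2% and 37.8% in WT and 15.1% and 31.3% in ZNF274KO and was not called, and its difference turned to 9.03 points in the 1 kb before the start alone. ZNF682 and ZNF506 had promoters that stood higher in both ZNF274KO libraries, by 18.6 and 18.5 points, without a call. That of ZNF430 was almost free of mCG in all libraries, at 0.452% and 0.760% in WT and 0.307% in ZNF274KO 1, with 0 of 368 reads in ZNF274KO 2, which allows up to 0.815%.

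Summed over the classes, the zinc finger exons of the window went from 48.2% ± 0.647 to 77.4% ± 5.67 (127 CpGs), and the rest of the gene bodies from 46.6% ± 1.05 to 76.5% ± 3.81 (5029 CpGs). The 14 promoters inside the window stood at 28.9% and 29.5% in WT and 29.2% and 32.4% in ZNF274KO (853 CpGs), which overlapped. The difference between zinc finger exons and promoters was 19.7 and 18.3 points in WT and 52.2 and 41.0 points in ZNF274KO, a change of 27.6 points with no overlap (exact permutation p = 0.333, the smallest possible). The 93 intergenic tiles, which overlap no annotated gene or promoter, went from 23.8% ± 0.516 to 56.0% ± 6.05. The exons exceeded them by 24.5 and 24.3 points in WT and by 21.1 and 21.7 points in ZNF274KO. That change of -3.01 points was small beside the changes of both classes and turned to 0.483 points when CpGs were averaged without weighting by reads. The exon sum mixes 9 exons with a WT mean of 0% to 25.5% and 6 with 89.3% to 97.2%, so it describes neither set. The 9 differed by 38.6 to 74.6 points and the 6 by -8.28 to 4.26 points, against 32.2 points for the intergenic tiles. Among 81 tested intergenic tiles 62 were called higher (76.5%) and 0 lower, with 19 of the 81 not called. That share was near the 76.4% of all tested tiles of the window. Of all tiles of the series, 0.473% were called higher and 0.0131% lower. Also called higher were 12 of 20 tiles over zinc finger exons, 10 of 19 over promoters and 55 of 91 over other parts of gene bodies. Tiles over noncoding genes or pseudogenes gave 110 of 115, and 1 promoter tile was called lower.

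**Figure D3:**
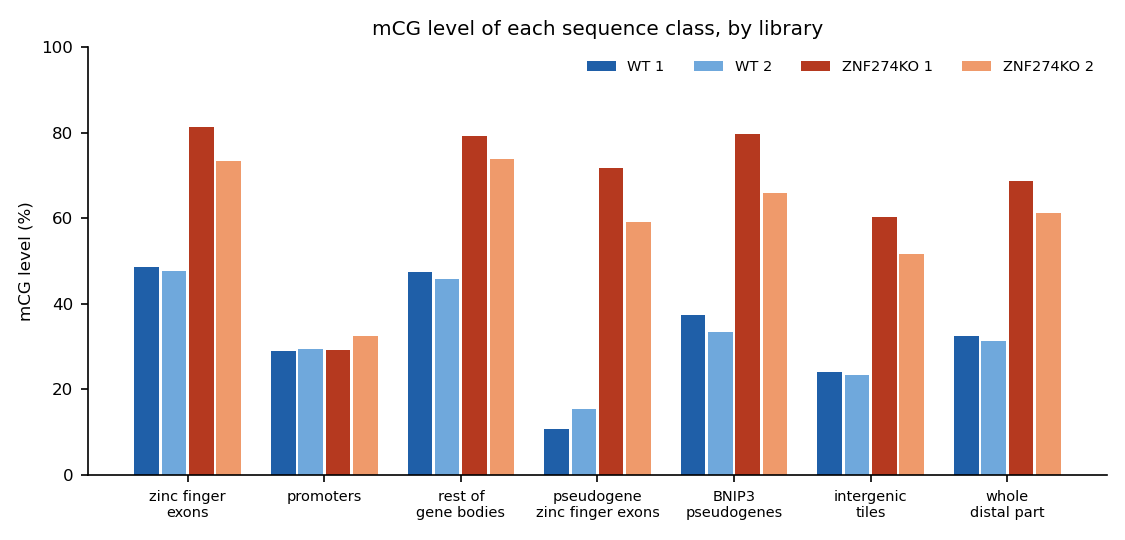
Bars give the mCG level (%) of each sequence class of the distal part in each of the 4 libraries, from summed reads. The ZNF274KO bars stand above the WT bars in every class drawn other than promoters, where the 4 libraries lie between 28.9% and 32.4%. The promoter bars sum promoters that rose and promoters that fell.

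Along the genes, the summed levels of the 2 groups met at the transcription start, where single promoters rose or fell. From 2 to 1 kb before it the summed level of 14 genes was 38.9% ± 1.54 in WT and 79.97% ± 5.05 in ZNF274KO, and 13 of the 14 genes were higher in ZNF274KO. In the last kb before the start the means were 32.3% and 42.0%. In the first kb after it they were 27.4% and 25.3%, with overlapping libraries, and 4 of the 14 genes were higher in ZNF274KO. From 1 to 2 kb after the start the difference was 13.5 points, and from 3 to 4 kb it was 32.7 points. Around the zinc finger exon there was no such dip. Every bin from 8 kb before to 9 kb after its start differed by 20.01 to 40.2 points, and the first kb of the exon differed by 32.9 points, within that range.

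**Figure D4:**
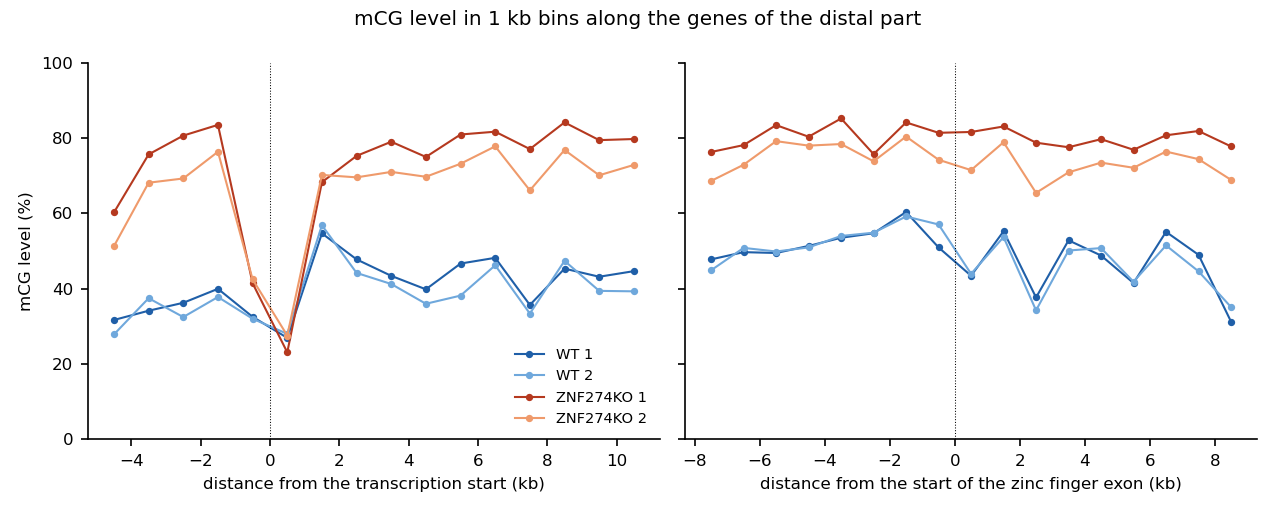
Lines give the mCG level (%) in bins of 1 kb, from reads summed over the genes along their strand, by library, against the distance (kb) from the transcription start (left, 14 genes) and from the start of the zinc finger exon (right, 15 genes). The libraries meet just after the transcription start, at 23.1% to 28.0%, and the ZNF274KO lines stay above the WT lines in every bin around the zinc finger exon.

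Pseudogenes of the cluster also stood higher in ZNF274KO, and their differences were not tested against those of the genes. Of 5 annotated pseudogenes with a zinc finger exon, 4 had CpGs with reads, and in all 4 both ZNF274KO libraries were above both WT libraries, which 12.6% of the largest coding exons of all genes were. That share is over exons with at least 20 reads and 5 CpGs in every library, which 3 of these 4 did not reach, so the sets are unlike. ZNF56P stood at 33.3% and 34.9% in WT and 91.2% and 90% in ZNF274KO. ENSG00000269274 stood at 6.12% and 13.5% in WT and 88.5% and 62.2% in ZNF274KO. The other pair, ENSG00000280171 and ENSG00000269779, overlap each other and are not independent, with differences of 29.7 and 39.0 points. The exon of ZNF826P had no CpG with a read. Together the exons of the pseudogenes, which hold 18 CpGs, went from 13.1% ± 3.45 to 65.4% ± 8.93. The 13 annotated copies of BNIP3, processed pseudogenes that are not of the zinc finger family, went from 35.4% ± 2.72 to 72.8% ± 9.72 over 105 CpGs. Only 39.0% of these CpGs lay in sequence that occurs once in the genome, so that reads could have been assigned between copies.

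**Figure D5:**
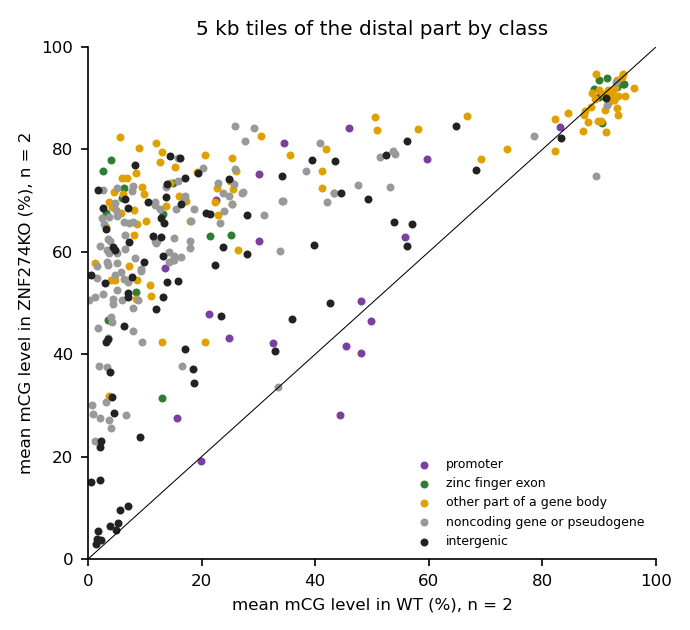
Each point is a tested 5 kb tile of the distal part, with its mean mCG level in WT on the horizontal axis and in ZNF274KO on the vertical axis (%, n = 2 each), coloured by the sequence it overlaps. Most tiles low in WT lie far above the line of equal levels, tiles near the upper right corner lie on it, and the intergenic tiles in the lower left corner are low in both groups.

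Repeated sequence was common in the window, where 59.4% of CpGs lay in a stretch of 50 converted bases that occurs once in the genome, against 76.4% of all CpGs. With those CpGs alone, the difference of the whole window was 32.7 points, and 237 of 322 tiles were called higher. Fewer exons could be tested, 9 of the 15, and 5 of these were called, all of them among the 8. At promoters, and at exons that were not high in WT, a missing call said little. In simulated data at these depths, with the spread of the replicate pairs, changes of 30 points were recovered at 0 of 200 exons and 0 of 200 promoters. The simulated rises were placed only in regions of low to middle level, so they do not cover the 6 exons with a WT mean of 80% or more.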

How the data were processed

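Groups and library numbers came from the labels of the 4 EM-seq libraries. The authors mapped the reads with Msuite2 and HISAT2 to hg19 plus rDNA and deposited, library by library, counts of reads per CpG, strand and base call without normalisation. How duplicates and mapping quality were handled is not given in the sources used here. Every site fell on a CG of GRCh37. Here C counts were methylated and T counts unmethylated, both strands were summed, and other bases were left out.

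Members and lists were chosen with earlier results of these data known. Named were every gene of the window with its promoter, body and zinc finger exon, pseudogenes with such an exon, the 5 largest tile rises and falls, and the longest runs. Zinc finger exons had 3 or more C2H2 matches. Regions with 20 reads and 5 CpGs in every library were tested with edgeR 4.0.16 (quasi-likelihood, R 4.3.3). The model had a term for each library's read depth in the region and a methylation log-odds for each group. Benjamini-Hochberg adjustment was over all regions of a kind. The single dispersion used was kept after the calls with it and with a dispersion that follows the mean count had both been seen. Values per library were compared by exact permutation. limma 3.58.1 on log2 ratios (pseudocount 1) and the methods' summary, the 75th percentile over CpGs, were alternatives.

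On simulated data, with 200 regions changed by 30 points and the spread estimated from the replicate pairs, edgeR recovered 94.5% among 50000 tiles (15 false calls), 99.5% among 19829 gene bodies (6 false calls), 0% among 14619 exons and 0% among 19758 promoters. The first version of this test had a fixed spread of 0.01 (intraclass correlation), and the spread was changed after that result was seen. At the fixed spread the shares were 61%, 96.5%, 20% and 0%. Of the changed exons and promoters, 129 and 158 were among the 200 smallest p-values, and unchanged regions ranked above the others.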

Additional observations from a re-analysis of the deposited data

How the results depend on the processing

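The rise of the whole window was 29.4 to 36.7 points with each library left out, 33.1 points with a replicate block and 32.7 to 33.4 points under the other settings. The change between zinc finger exons and promoters was 21.96 to 33.2 points and that against the centromere-side part 1.27 to 4.61 points with a library left out. The change between exons and intergenic tiles turned to 0.483 points with unweighted CpGs. The difference in depth relative to the autosomes, ZNF274KO minus WT, ranged from -0.00381 (without ZNF274KO replicate 1) to 0.0786, left-out libraries included. These depth checks were added after the data were seen. Called tiles numbered 250, 229 to 253 with a library left out, 253 with a replicate block, 167 with limma and 127 of 165 with 10 kb tiles. Called exons numbered 8, 9 with a replicate block, 5 of 7 with 50 reads, 1 with limma and 5 with CpGs in sequence that occurs once. In the last 3 settings fewer exons were tested or another test was used. Over the whole series limma called 2 exons, against 66 in the main fit. Several exon calls of the window were lost with a library left out, where calls also became fewer over the whole series. Called promoters numbered 3, 2 with at least 10 reads, 5 with a replicate block, and 0 with limma, within 500 bases and in the 1 kb before the start. The count also changed with a library left out. Over the whole series the main fit called 25 promoters, the replicate block 145 and limma 0. The window of 500 bases gave 1 and the 1 kb before the start gave 12. Called gene bodies numbered 9, 8 to 9 with a library left out and 10 with a replicate block.

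The numbers 1 and 2 were not shown to pair the libraries (r = -0.108 over tiles for the within-group differences). With crossed numbers, added after the data were seen, 254 tiles, 9 exons, 4 promoters and 10 bodies were called. A dispersion that follows the mean count, also added after its counts were seen, gave 251, 8, 2 and 9. The 75th percentile over CpGs, which has no test, moved 22 of the 30 exons and bodies by more than the replicate spread. Among called ones it turned no direction, and it moved the exon of ZNF66 from 41.9 to 63.75 points and the body of ZNF253 from 38.1 to 58.7. Directions that turned were those of uncalled features. With each library left out, the exon of ZNF506 ranged from -5.29 to 4.01 points, that of ZNF714 from -3.28 to 0.345 and that of ZNF431 from -3.09 to 3.81. The promoters of ZNF90, ZNF714 and ZNF431 ranged from -0.464 to 6.13, from -1.08 to 9.69 and from -3.51 to 1.14. Within 500 bases the promoters of ZNF737 and ZNF714 stood at 0.685 and -0.617. In the 1 kb before the start those of ZNF93, ZNF737, ZNF66, ZNF430 and ZNF708 stood at 9.03, 9.10, 6.50, 0.307 and 3.14 points. The cause was not tested. With 2 libraries a group and 7 to 9 reads per CpG, exons limit what can be called.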
